A study of Mus musculus with 8 samples.

Results

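The 8 genes described here act in chromosome organisation, the cell cycle and DNA repair, and they were read from 8 mouse liver libraries. They are Smc2, Nipbl, Melk, Skp2, Ccne2, Rad54b, Nbn and Rad1, found by symbol among 55416 rows of a count table. Their rows lie on stretches of chromosomes 4 and 15 where row names and counts fit each other. The stretches were selected on measured values, namely mean counts over all 8 libraries, in earlier work on these data, and the 8 genes were picked with results of these data known. Over most of the genome the name of a row could not be shown to belong to its counts, so rows elsewhere are not read by name. The livers came from 4 SostPB/- and 4 Sost-/- mice, all fed the MCD diet, a steatohepatitis diet that in its usual sense lacks methionine and choline. Each library is from 1 mouse, as the titles number biological replicates. Both genotypes carry a Sost minus allele. Sclerostin, the product of Sost, damps Wnt signals outside the cell, and the question posed was what an excess of it does to steatohepatitis. The labels do not explain PB and give no age or sex. The row named Sost, outside the stretches, held 0 counts in all 8 libraries and does not check the genotypes.

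Chromosomes are shaped by ring complexes that hold DNA loops. Condensin, with Smc2 as a core ATPase subunit, compacts chromosomes for mitosis, and cohesin, which Nipbl helps to load, holds sister chromatids together and folds the interphase genome. Entry into S phase is driven by cyclin E with its kinase Cdk2, and the ligase subunit Skp2 removes inhibitors of that kinase. Breaks in DNA are sensed by the complex of Nbn with Mre11 and Rad50, while Rad1 belongs to a clamp that signals from stalled or damaged DNA. Hepatocytes of the adult liver rarely divide but can re-enter the cycle after injury, and many are polyploid. In bulk liver RNA, fewer cells of a type and less RNA per cell cannot be told apart.

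The libraries held 9578086 to 14613316 counts in SostPB/- and 9919069 to 14932773 in Sost-/-. Mitochondrial rows took 54.7% to 64.3% of counts in SostPB/- and 47.4% to 59.2% in Sost-/-. Rows above 0 numbered 14459 to 14762 in SostPB/- and 15436 to 16629 in Sost-/-, with no overlap between the genotypes. Of the coding rows on the stretches 55.7% reached a mean of 100 counts, against 15.3% of coding rows elsewhere in the nuclear genome. The stretches were selected on mean counts, so this difference is no separate check of the names. Values per library are given as CPM, the usual depth-scaled count, with library totals scaled by edgeR's TMM method.

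None of the 8 genes differed between the genotypes in edgeR's quasi-likelihood test at an adjusted p of 0.05, where 0% of 10020 tested rows passed. All 8 had entered the test. Smc2 and Rad54b, both higher in SostPB/-, had an unadjusted p under 0.05, as did 6.45% of all tested rows (2.98% higher and 3.46% lower in SostPB/-) and 8.26% of 460 tested nuclear rows on the stretches. Smc2 and Rad54b were chosen with such values known, so nothing is read from that count. DESeq2 called 0 of the 8, with 0.418% of all its rows and 0.774% of those on the stretches called, and limma-voom, weighting libraries by quality, called 0, against 0.00998% of rows. In 0 of the 8 genes were the genotypes fully apart, against 3.92% of all tested rows. The log2 fold changes of SostPB/- over Sost-/- were positive for Smc2, Rad54b, Ccne2 and Nbn and negative for Nipbl, Skp2, Rad1 and Melk. Their median was 0.07, against -0.01 over all tested rows.

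**Figure D1:**
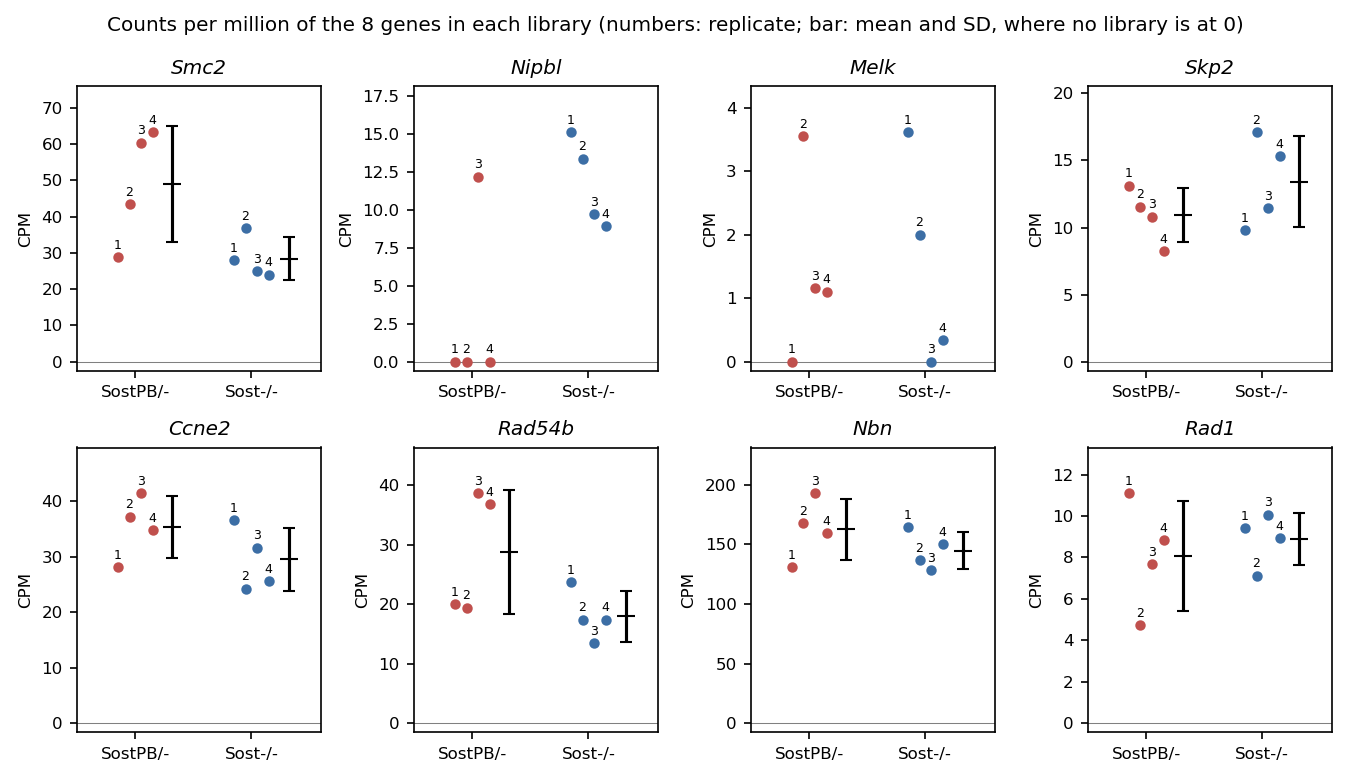
CPM (vertical axes, from 0) of each of the 8 genes in the 4 SostPB/- and 4 Sost-/- libraries, 1 point per library with its replicate number. Bars give mean and SD and are left out for Nipbl and Melk, where libraries are at 0; Nipbl is at 0 in SostPB/- replicates 1, 2 and 4 only, and the genotypes overlap in every panel.

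Smc2 (ENSMUSG00000028312, chromosome 4, 52439243 to 52488260, GRCm38, plus strand) had 28.9, 43.4, 60.4 and 63.3 CPM in SostPB/- replicates 1 to 4, against 27.9, 36.8, 24.9 and 24.01 CPM in Sost-/- replicates 1 to 4. In SostPB/- 3 of 4 libraries lay above every Sost-/- library, and replicate 1 lay among them. The means were 49.0 ± 16.02 CPM in SostPB/- and 28.4 ± 5.86 CPM in Sost-/- (SD, n = 4 each), a log2 fold change of 0.79 (standard error, SE, 0.26). edgeR's p was 0.0118 before and 0.664 after adjustment over all rows, and DESeq2's adjusted p was 0.285. Mitochondrial shares were also higher in SostPB/- (59.3% ± 3.92, against 51.9% ± 5.14 in Sost-/-; SD, n = 4). With mitochondrial rows left out, Smc2 was at 0.79 again. Leaving these rows out changes the scaling and the filter only, and a link of Smc2 with the mitochondrial share was not tested. The name of Smc2 is less certain than the others. The gene lies beyond Mrpl50 (from 49512596), past which names on chromosome 4 were judged less certain. Within 2 Mb of Smc2, 5 of 15 coding rows and 0 of 32 other rows reached 100 counts. Of all coding rows from Mrpl50 onwards 47.2% did. As the stretch was itself selected on mean counts, these shares are no separate check of the name.

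The promoter of Smc2 is shown because Smc2 had the smallest p of the 8 genes. The window runs from 250 bases before to 50 after the RefSeq start (chr4:52438971-52439270, GRCm38.p6, plus strand). Capitals mark the cell cycle homology region letters TTTGAA on the opposite strand, a short element that in other cell cycle promoters is bound by the DREAM complex.
Smc2 promoter: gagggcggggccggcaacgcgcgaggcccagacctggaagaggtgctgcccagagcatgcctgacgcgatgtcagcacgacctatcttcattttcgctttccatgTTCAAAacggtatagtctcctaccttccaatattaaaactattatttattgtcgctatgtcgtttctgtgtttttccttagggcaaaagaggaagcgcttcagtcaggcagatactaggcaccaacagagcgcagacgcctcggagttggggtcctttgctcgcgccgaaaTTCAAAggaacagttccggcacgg
The letters occur at -145 and at 27 from the start. They occur on either strand in 17.9% of 32851 RefSeq promoter windows of the same length, so a match is a description and not a site. The E2F letters TTTCCCGC, TTTGGCGC, TTTCGCGC or TTTGCCGC, held by 2.27% of windows, and overlapping no TTTGAA, were not in this window. The windows of Melk and Rad1, and 1 of the 2 Skp2 windows, held neither. The other Skp2 window held TTTGAA at -63 and -55.

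Nipbl (ENSMUSG00000022141, chromosome 15, 8290617 to 8444463, minus strand) had an all-or-none pattern. Its row was listed at 0 counts in SostPB/- replicates 1, 2 and 4 and at 105 counts in replicate 3, against 201, 154, 115 and 104 counts in Sost-/- replicates 1 to 4. In CPM, SostPB/- replicate 3 stood at 12.2, inside the Sost-/- values of 15.2, 13.4, 9.74 and 8.95. A count of 0 allows up to 3 counts, or 0.305, 0.222 and 0.301 CPM in those 3 SostPB/- libraries. Whether these 0 counts come from the RNA or from the counting was not tested. edgeR fitted a log2 fold change of -1.99 (SE 1.30, adjusted p = 0.924), and DESeq2 one of -1.95 (adjusted p = 1.00).

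That result turned on 1 library. Without SostPB/- replicate 3 edgeR called Nipbl, at an adjusted p of 0.00894, and it was the only 1 of 10552 rows called (0.00948%). Over all alternatives its adjusted p ran from that value to 1.00. The fitted fold is then set by libraries at 0 and is no bound: it was -10.11 without replicate 3, -5.72 in limma-voom and -5.14 with replicate number as a block, so no size is given. Among all 55416 rows, Nipbl was the only row at 0 in 3 or more SostPB/- libraries with at least 100 counts in every Sost-/- library. In the opposite direction there was also 1 row, named Gm29427 and outside the stretches. These limits match the counts of Nipbl itself, whose lowest Sost-/- count was 104, so nothing is read from its standing alone. Of 333 coding rows on the stretches with a mean of at least 50 counts, 6 (1.80%), Nipbl included, were at 0 in at least 1 library and at 100 or more in another, as were 1.93% of the 6016 rows with that mean in the whole table. SostPB/- libraries also had fewer rows above 0, and the part of this in the Nipbl result was not tested. The nearest tested coding gene, Cplane1, 19.5 kb away and chosen after its values were seen, was read in every library, at 12.4, 7.63, 11.6 and 11.2 CPM in SostPB/- and 14.02, 11.6, 16.3 and 14.3 CPM in Sost-/-. Its genotypes overlapped, and edgeR gave Cplane1 a log2 fold change of -0.39 (SE 0.22, adjusted p = 0.897).

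**Figure D2:**
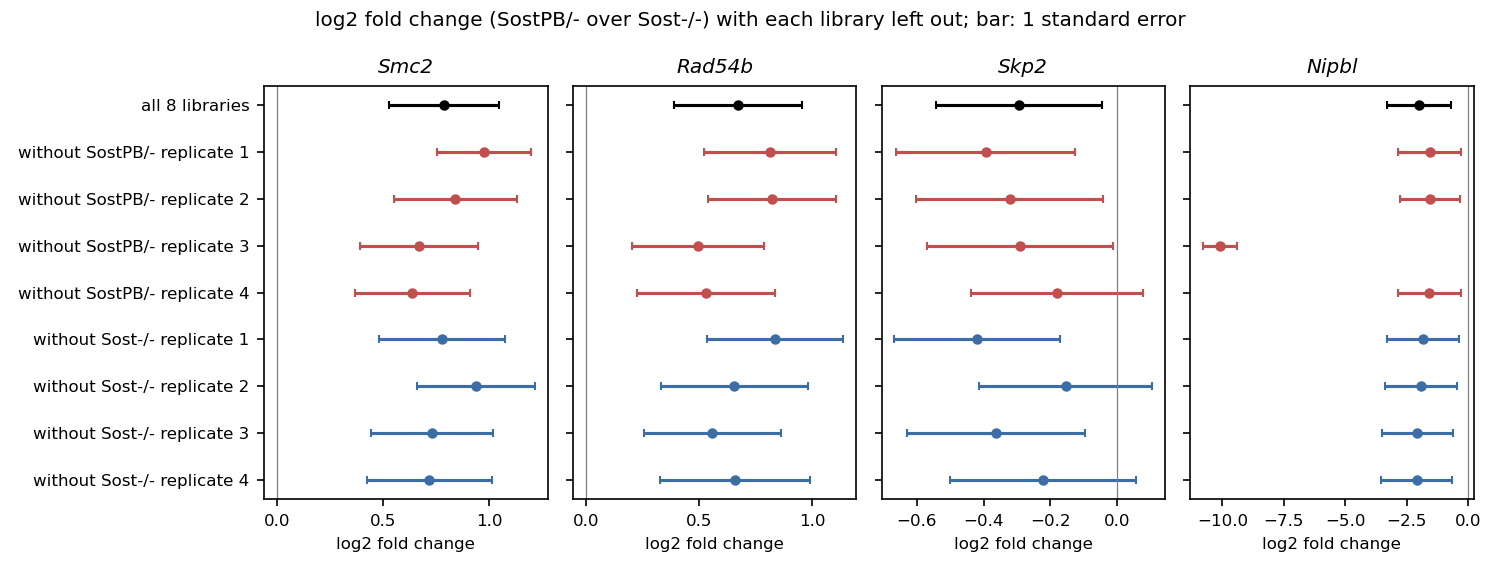
edgeR log2 fold change of SostPB/- over Sost-/- (horizontal axes, a scale of its own in each panel) for Smc2, Rad54b, Skp2 and Nipbl with all 8 libraries (black) and with each SostPB/- (red) or Sost-/- (blue) library left out; bars are 1 standard error. Smc2 stays between 0.64 and 0.97, and Nipbl moves to -10.11 without SostPB/- replicate 3.

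Ccne2, which encodes cyclin E2 (ENSMUSG00000028212, chromosome 4, 11191351 to 11204779, plus strand), had 28.1, 37.2, 41.4 and 34.8 CPM in SostPB/-, against 36.6, 24.2, 31.7 and 25.6 CPM in Sost-/-. The genotypes overlapped, with SostPB/- replicate 3 the highest and Sost-/- replicate 2 the lowest, and edgeR gave a log2 fold change of 0.26 (SE 0.20, adjusted p = 0.945). Ints8, an Integrator subunit on the opposite strand, shares 17.4% of the exon bases of Ccne2 and had a log2 fold change of 0.03 (SE 0.16). Whether counting used the strand was not given in the sources used here. If it did not, reads in the shared part could belong to either gene.

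Skp2, the substrate-binding subunit of an SCF ubiquitin ligase (ENSMUSG00000054115, chromosome 15, 9111985 to 9155425, minus strand), had 13.1, 11.5, 10.8 and 8.23 CPM in SostPB/-, against 9.80, 17.1, 11.4 and 15.3 CPM in Sost-/-. Replicate 4 of SostPB/- was below every Sost-/- library and the other 3 lay among them. For Skp2, edgeR gave a log2 fold change of -0.29 (SE 0.25, adjusted p = 0.955). The bodies of Skp2 and Lmbrd2, on opposite strands, overlap by 14876 bases and share no exon base. Lmbrd2, at 343 ± 71.3 CPM in SostPB/- and 312 ± 73.7 CPM in Sost-/- (SD, n = 4 each), was far more abundant and had a log2 fold change of 0.14 (SE 0.21). Nadk2, a mitochondrial NAD kinase gene 1093 bases from the other end of Skp2, had 0.31 (SE 0.18, edgeR adjusted p = 0.899).

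Melk, a kinase whose RNA is a usual sign of dividing cells (ENSMUSG00000035683, chromosome 4, 44300876 to 44364675, plus strand), was barely detected. It had 0, 48, 10 and 11 counts in SostPB/- and 48, 23, 0 and 4 counts in Sost-/-. Each genotype had 1 library at 0 and 1 library at 48 counts, so the ranges coincided. The fit gave a log2 fold change of -0.02 (SE 1.22, edgeR adjusted p = 1.00). That error spans more than 2-fold in either direction. Of the proliferation markers Mki67, Top2a, Ccnb1, Cdk1 and Melk, only Melk lies on the stretches, and the others are not read here.

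Rad54b, a DNA translocase that assists homologous recombination (ENSMUSG00000078773, chromosome 4, 11558922 to 11615805, plus strand), had 20.05, 19.4, 38.6 and 36.8 CPM in SostPB/-, against 23.7, 17.4, 13.5 and 17.4 CPM in Sost-/-. SostPB/- replicates 3 and 4 lay above every Sost-/- library, and replicates 1 and 2 lay among them. The means were 28.7 ± 10.4 CPM in SostPB/- and 17.99 ± 4.26 CPM in Sost-/- (SD, n = 4 each), a log2 fold change of 0.67 (SE 0.28). edgeR's p was 0.0380 before and 0.748 after adjustment over all rows. This row cannot be read as Rad54b alone. Fsbp, a gene on the same strand, shares 35.8% of the exon bases of Rad54b and had 12.2, 13.5, 24.1 and 16.6 CPM in SostPB/-, against 19.8, 9.65, 2.29 and 7.23 CPM in Sost-/-. Fsbp followed the same libraries only in part, at a log2 fold change of 0.76 (SE 0.51, edgeR adjusted p = 0.926). The antisense RNA gene Gm11832, within the last part of Rad54b and chosen after its values were seen, had 7.02, 8.59, 8.03 and 8.13 CPM in SostPB/-, against 3.17, 3.48, 3.39 and 4.82 CPM in Sost-/-. Here all 4 SostPB/- libraries lay above all 4 Sost-/- libraries, as the genotypes were apart in 4.13% of the tested nuclear rows on the stretches. Gm11832 had a log2 fold change of 1.10 (SE 0.25, edgeR adjusted p = 0.461).

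Nbn, which encodes nibrin (ENSMUSG00000028224, chromosome 4, 15957925 to 15992589, plus strand), was the most abundant of the 8 genes. It had 131, 168, 193 and 159 CPM in SostPB/-, against 164, 137, 128 and 149.98 CPM in Sost-/-. The ranges overlapped, and replicates 2 and 3 of SostPB/- exceeded every Sost-/- library. The log2 fold change of Nbn was 0.17 (SE 0.16, edgeR adjusted p = 0.958). Osgin2, which ends 4531 bases away on the opposite strand, had -0.04 (SE 0.23). It had the smallest spread of the 8, with a coefficient of variation within genotypes of 13.3% on average, against a median of 20.4% over 460 tested nuclear rows on the stretches. With plain library totals as the scaling its log2 fold change was -0.03, the median of all rows then being -0.21, against -0.01 with TMM.

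Rad1 (ENSMUSG00000022248, chromosome 15, 10486018 to 10499063, plus strand) had 11.1, 4.74, 7.68 and 8.83 CPM in SostPB/-, against 9.42, 7.13, 10.1 and 8.95 CPM in Sost-/-. The SostPB/- libraries spanned a range on both sides of the Sost-/- libraries. Rad1 had a log2 fold change of -0.14 (SE 0.28, edgeR adjusted p = 0.981), and of 0.050 without SostPB/- replicate 2. Brix1, a ribosome assembly factor that starts 70 bases away on the opposite strand, had 60.3, 46.9, 49.6 and 51.5 CPM in SostPB/-, against 44.6, 36.4, 45.9 and 46.8 CPM in Sost-/-. The genotypes nearly touched without overlapping, and edgeR's log2 fold change was 0.26 (SE 0.16, adjusted p = 0.907).

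Both Rad1 and Skp2 have a start that faces that of another gene, and the windows are shown for this arrangement, which the choice of the genes did not use. For Skp2 the facing start is an inner one. Its gene body begins at 9155425, where its other RefSeq window lies (chr15:9155376-9155675), inside the body of Lmbrd2. Capitals mark the bases between the 2 starts, 70 bases to Brix1 in the Rad1 window (chr15:10485768-10486067, GRCm38.p6, plus strand) and 95 bases to Lmbrd2 in the Skp2 window (chr15:9140405-9140704, GRCm38.p6, minus strand). The starts of Rad1 and Skp2 are RefSeq's, and those of the facing genes are from GENCODE M21.
Rad1 promoter: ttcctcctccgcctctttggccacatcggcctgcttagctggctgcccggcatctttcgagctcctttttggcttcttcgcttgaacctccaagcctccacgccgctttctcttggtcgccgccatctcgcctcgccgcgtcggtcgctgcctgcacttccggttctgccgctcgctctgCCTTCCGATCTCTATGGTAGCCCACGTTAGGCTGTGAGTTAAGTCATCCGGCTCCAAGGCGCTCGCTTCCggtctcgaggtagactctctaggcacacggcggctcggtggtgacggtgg
Skp2 promoter: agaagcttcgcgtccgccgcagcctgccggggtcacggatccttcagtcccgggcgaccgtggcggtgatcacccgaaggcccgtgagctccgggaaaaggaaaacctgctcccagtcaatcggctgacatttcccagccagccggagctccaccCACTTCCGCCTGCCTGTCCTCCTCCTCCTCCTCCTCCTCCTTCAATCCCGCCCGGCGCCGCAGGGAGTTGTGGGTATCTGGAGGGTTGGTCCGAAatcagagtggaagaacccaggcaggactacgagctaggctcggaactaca
In each pair the log2 fold change was negative for the gene described and positive for the facing gene, with none past the test, and the difference within a pair was not tested. RefSeq windows matched 4 of the 8 genes by symbol, namely Smc2, Melk, Skp2 and Rad1, and those of Nipbl, Ccne2, Rad54b and Nbn were not used here.

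Levels of different genes were compared as CPM per kb of GRCm38 exon length, over all 8 libraries. The length counts every annotated exon base of a gene, whether or not liver uses that exon. Ccne2 and Rad54b share exon bases with Ints8 and Fsbp, so their levels may include reads of those genes. Nbn stood at 60.7 ± 8.62 CPM per kb (SD, n = 8), well above the next gene. Ccne2 followed at 9.29 ± 1.74, Smc2 at 7.06 ± 2.86 and Rad54b at 4.04 ± 1.62 CPM per kb. Ccne2 was above Smc2 in 7 of 8 libraries, with a difference of 2.23 ± 2.30 CPM per kb (SD over libraries), which is within its spread. Smc2 was above Rad54b in 8 of 8 libraries, by 3.03 ± 1.62 CPM per kb. Skp2 at 1.55 ± 0.369 and Rad1 at 1.15 ± 0.266 CPM per kb were lower. Skp2 was above Rad1 in 6 of 8 libraries, with a difference of 0.399 ± 0.477 CPM per kb, which is within its spread. Nipbl and Melk, with libraries at 0, reached at most 15.2 and 3.62 CPM in any library, over 9.42 and 2.97 kb of exons.

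The 8 genes did not vary together between mice beyond what the test could resolve. Over 28 pairs, with log2(CPM + 1) in 8 libraries, 14 correlations were positive and 0 passed an adjusted p of 0.05 by exact two-sided permutation, while 5 had an unadjusted p under 0.05. By Pearson's r the closest pair was Smc2 with Rad54b, at r = 0.833 (exact permutation p = 0.0119, adjusted 0.205) and Spearman's rho = 0.643 (p = 0.0962, adjusted 0.353). Without the 2 libraries farthest from the median of Smc2, r was 0.257 (exact permutation p = 0.608, adjusted 0.933). That step narrows the range of Smc2, which by itself can lower r, so it cannot tell whether the relation holds. Within genotypes r was 0.706 (exact permutation p = 0.146, adjusted 0.580), with 0.868 among the 4 SostPB/- libraries and 0.210 among the 4 Sost-/- libraries. Skp2 and Ccne2 ran opposite to each other, at r = -0.807 (exact permutation p = 0.0157, adjusted 0.205) and rho = -0.714 (p = 0.0576, adjusted 0.353). For this pair r was -0.858 without the 2 libraries farthest from the median of Skp2. Within genotypes it was -0.754 (exact permutation p = 0.0747, adjusted 0.515), with -0.386 among the 4 SostPB/- libraries and -0.995 among the 4 Sost-/- libraries. By Spearman's rho the closest pair was Ccne2 with Nbn, at 0.786 (exact permutation p = 0.0279, adjusted 0.353), with r = 0.767 (p = 0.0293, adjusted 0.205). Without the 2 libraries farthest from the median of Ccne2 its r was 0.946 (exact permutation p = 0.00556, adjusted 0.117). Rad54b with Nbn, at r = 0.761, and Melk with Rad1, at r = -0.690, also had an unadjusted p under 0.05.

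Of 438 genes listed for condensin, cohesin, cyclins and their kinases, cell cycle ubiquitin ligases, mitosis, replication and repair, 28 lie on the stretches, 20 of them besides the 8. All 20 were tested, 0 passed edgeR's adjusted p in either direction and 1 had an unadjusted p under 0.05. Their median log2 fold change was 0.06, against -0.01 over the 460 tested nuclear rows of the stretches, with 14 positive and 6 negative. The gene with the small p was Trp53inp1, a stress protein induced by p53 and the nearest gene upstream of Ccne2. It had 366, 967, 430.2 and 546 CPM in SostPB/-, against 1189, 587, 1611 and 954 CPM in Sost-/-. In SostPB/- 3 of 4 libraries lay below every Sost-/- library, and replicate 2 lay among them. Its log2 fold change was -0.91 (SE 0.35), and edgeR's p was 0.0259 before and 0.719 after adjustment over all rows.

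Among replication genes Rpa3, the small subunit of the single-strand binding protein RPA, had 23.3 ± 3.95 CPM in SostPB/- and 17.6 ± 3.50 CPM in Sost-/- (SD, n = 4 each), at a log2 fold change of 0.40 (SE 0.21, edgeR adjusted p = 0.853). The origin recognition gene Orc3 stood at 0.10 (SE 0.19), the telomere protein gene Pot1a at 0.05 (SE 0.26) and the histone chaperone gene Anp32b at 0.05 (SE 0.17). Inip, a partner of single-strand DNA binding proteins in break repair, was the only 1 of the 20 whose genotypes did not overlap, against 3.92% of all tested rows. It had 24.5, 29.5, 23.5 and 24.3 CPM in SostPB/-, against 17.9, 19.6, 20.3 and 22.5 CPM in Sost-/-. Inip had a log2 fold change of 0.34 (SE 0.17, edgeR adjusted p = 0.815). Of other repair genes Fancg, of the Fanconi anaemia core complex, had 0.43 (SE 0.33), Sem1 had -0.09 (SE 0.20), Xpa, which verifies damage in nucleotide excision repair, had -0.22 (SE 0.17), and Rad23b, a partner of Xpc, had 0.12 (SE 0.17). Aptx, which trims abortive ligation ends, had -0.02 (SE 0.17) and the transcription coactivator gene Sub1 had 0.02 (SE 0.16).

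Among ubiquitin ligase genes the anaphase-promoting complex subunit Cdc26 had a log2 fold change of 0.01 (SE 0.16), the conjugating enzyme gene Ube2r2 of 0.09 (SE 0.15), Topors of 0.12 (SE 0.16) and Zc3hc1 of -0.03 (SE 0.20). Among regulators of the cycle Ccnc, a cyclin of the Mediator kinase module, had 0.12 (SE 0.18), the Hippo kinase gene Stk3 had 0.08 (SE 0.18) and the chromatin reader gene Ing3 had -0.08 (SE 0.16). The centrosomal kinesin gene Kif24, at 5.76 ± 3.23 CPM in SostPB/- and 5.46 ± 2.94 CPM in Sost-/- (SD, n = 4 each), had 0.08 (SE 0.52). With plain library totals as the scaling, 11 of the 20 and Nbn changed sign to negative, the median of all rows then being -0.21.

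**Figure D3:**
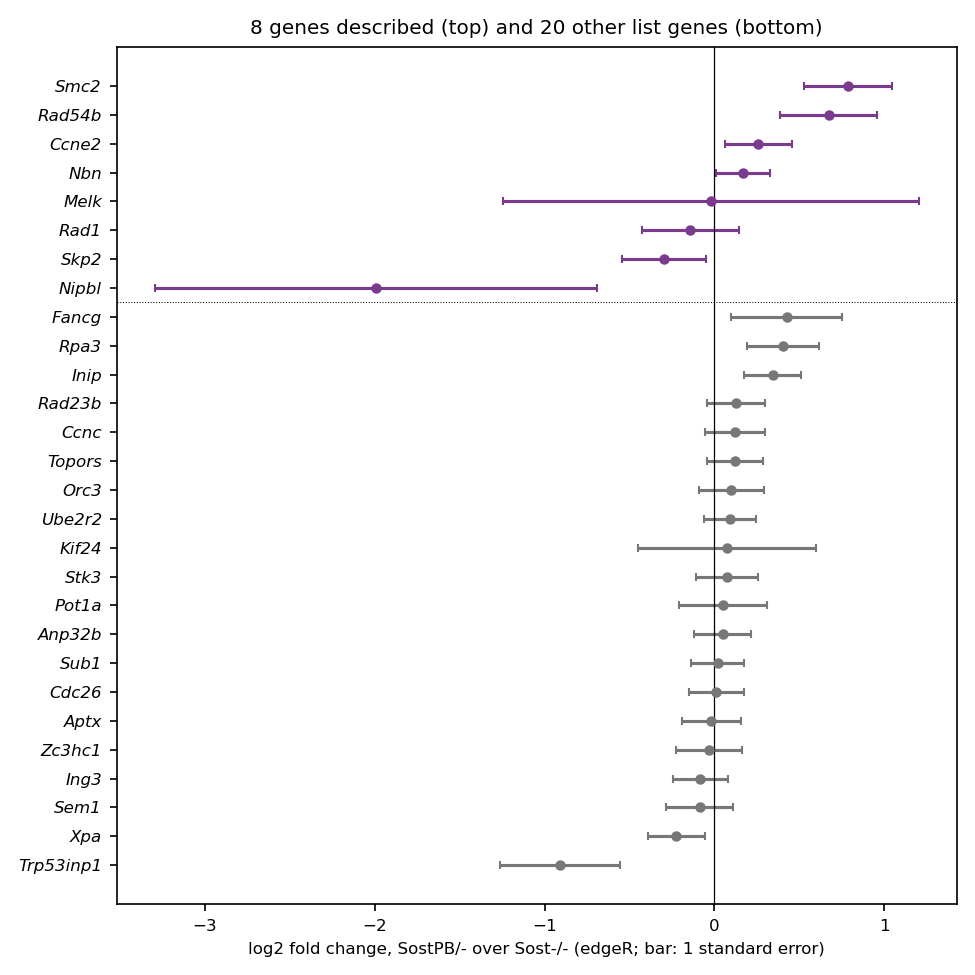
edgeR log2 fold change of SostPB/- over Sost-/- (horizontal axis; bars are 1 standard error) for the 8 genes described and, under the dotted line, the 20 other listed genes on the stretches, each set ordered by fold change. Smc2 at 0.79 and Nipbl at -1.99 are the ends of the upper set, and Fancg at 0.43 and Trp53inp1 at -0.91 those of the lower.

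Cell type markers were checked beside these genes. Of 41 markers listed, 14 besides Melk lie on the stretches, and all 14 overlapped between the genotypes. Only 4.13% of the 460 tested nuclear rows there did not overlap, so this count does not show equal shares of cell types. Pon1, the liver-made paraoxonase of blood lipoproteins, stood at 1895 ± 278 CPM in SostPB/- and 1746 ± 207 CPM in Sost-/- (SD, n = 4 each), while Alb, Apoa1 and Ttr lie outside the stretches and are not read here. The B cell gene Cd72 had 9.07 ± 3.50 CPM in SostPB/- and 10.3 ± 4.97 CPM in Sost-/-, and Pax5 had 1.63 ± 1.00 CPM in SostPB/- and 1.35 ± 0.809 CPM in Sost-/- (SD, n = 4 each). The lymphocyte receptor gene Il7r had 52.8 ± 10.9 CPM in SostPB/- and 68.7 ± 14.7 CPM in Sost-/- (SD, n = 4 each), at a log2 fold change of -0.38 (SE 0.21, edgeR adjusted p = 0.884). Tfec, of myeloid cells, had -0.25 (SE 0.21), the collagen gene Col1a2 had 0.23 (SE 0.23), Cav1, of endothelium, had 0.14 (SE 0.23) and Npr3 had -0.04 (SE 0.37). Of hepatocyte genes, Baat, which conjugates bile acids, had -0.04 (SE 0.17) and Cyp7a1, which starts their synthesis from cholesterol, had 0.15 (SE 0.41).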

How the data were processed

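Poly-A RNA of 8 livers was sequenced. The submitters' processing notes give mm10 as the build and list HISAT2, StringTie and DESeq2 without versions. Annotation and strand settings were not given in the sources used here. The authors deposited whole-number counts for 55416 rows, and a second table of 22883 rows whose signal per gene equals those counts over 1 size factor per library (100% of values whole within 0.001). Its recovered reads equal the counts, so the test on them repeats the main one, with 0 rows called.

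Positions and exon lengths are from GENCODE M21 (GRCm38), matched by ID for 52083 rows, of which 52046 carry a higher ID version than M21. Stretches run from Rps20 to Prpf4 (chromosome 4), Vps50 to Copg2 (chromosome 6) and Nup155 to Cox6c (chromosome 15), with 1433 rows, as found in earlier work on these data. The genes and lists were chosen with earlier results of these data known.

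The test of the counts was edgeR's (version 4.0.16, R 4.3.3), after filterByExpr with the genotypes and TMM scaling, with glmQLFit and glmQLFTest, with Benjamini-Hochberg adjustment over all tested rows at 0.05. The standard error is the log2 fold change over the square root of F. Correlations used exact permutation (scipy 1.17.1). DESeq2 1.42.0, limma 3.58.1 with voom, other scalings and filters, a block on replicate number and each library left out in turn served as alternatives. The scripts were tested on simulated data. Groups, replicates and columns were taken from titles and descriptions. The rule for named genes took the 8 genes, all 20 other tested list genes on the stretches, tested markers there, and coding neighbours that overlap or lie within 5 kb; exceptions are stated, and 1 marker that the rule takes is not reported here. Limits for a count of 0 cover counting error only.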

Additional observations from a re-analysis of the deposited data

Results flagged for a closer look

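A library was set apart when its gap to the nearest library of its genotype filled most of the genotype's range. Of 90 sets of 4 values compared, 9 stood out, where chance gives about 1 in 20. Nipbl was high in SostPB/- replicate 3, at 12.2 CPM against 0 in the other 3 libraries. Ing3 was low in SostPB/- replicate 1, at 36.8 CPM against 49.1 to 49.9. Inip was high in SostPB/- replicate 2, at 29.5 CPM against 23.5 to 24.5. Pot1a was high in Sost-/- replicate 4, at 19.1 CPM against 16.001 to 16.4. Sem1 was high in Sost-/- replicate 3, at 162 CPM against 96.2 to 105. Zc3hc1 was high in SostPB/- replicate 1, at 28.3 CPM against 20.6 to 21.6. Total counts were high in SostPB/- replicate 2, at 14613316 against 9578086 to 10412498, and in Sost-/- replicate 1, at 14932773 against 9919069 to 10554376. Rows above 0 were low in SostPB/- replicate 4, at 14459 against 14735 to 14762.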

How the results depend on the processing

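The count of the 8 genes called was 0 with all libraries and under every setting listed in the methods, except without SostPB/- replicate 3, where it was 1 (Nipbl). Leaving out 1 library gave 0 to 1 genes called among the 8, 0 to 1 among the 28 listed genes and 0 to 4 among all rows. Over all rows 0 were called in edgeR, 2 without a filter on low counts, 53 in DESeq2 and 1 in limma-voom. Of the 8 genes, Smc2, Rad54b, Ccne2, Skp2 and Nipbl kept their direction in every alternative; the one on reads recovered from the second table repeats the same counts and adds nothing. Smc2 ran from 0.58 to 0.97. Scaled by library totals only, these log2 fold changes turned negative: Nbn -0.034, Anp32b -0.15, Ccnc -0.064, Cdc26 -0.19, Kif24 -0.17, Orc3 -0.097, Pot1a -0.14, Rad23b -0.061, Stk3 -0.13, Sub1 -0.19, Topors -0.076, Ube2r2 -0.087. With no filter Cdc26 was at -0.0050. In limma-voom the values that turned were Melk 0.37, Cdc26 -0.0025, Kif24 -0.057, Pot1a -0.022. In the fit of name-holding rows alone they were Melk 0.021, Cdc26 -0.0039, Sub1 -0.0021. Leaving out 1 library turned the sign of these genes, with ranges of Anp32b -0.067 to 0.13, Aptx -0.086 to 0.083, Cdc26 -0.061 to 0.14, Ing3 -0.13 to 0.013, Kif24 -0.28 to 0.35, Melk -0.98 to 0.90, Orc3 -0.011 to 0.18, Pot1a -0.074 to 0.26, Rad1 -0.33 to 0.050, Sem1 -0.17 to 0.11, Stk3 -0.019 to 0.21, Sub1 -0.039 to 0.12, Ube2r2 -0.0046 to 0.17, Zc3hc1 -0.15 to 0.048. The causes were not tested. Same-numbered libraries of the genotypes did not deviate together (r from -0.0382 to 0.0405 over 4 pairs, against -0.0704 to 0.0587 for other pairs). The labels only number the replicates and do not say whether same-numbered mice belong together. With the replicate block 0 rows were called, as without it, and Melk was at 0.74 and Pot1a at -0.012. Levels per length with totals of nuclear rows alone were higher, since mitochondrial counts leave the denominator: Nbn 138, Ccne2 21.1, Smc2 16.1, Rad54b 9.20, Skp2 3.52, Rad1 2.61, Nipbl 1.79, Melk 1.13 CPM per kb. The order of the genes stayed the same, which says little, as all genes of a library are scaled by the same factor. The count of correlated pairs was 0 in each setting. Melk had 0 to 48 counts per library.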
